A study of Rattus norvegicus with 48 samples.

Results

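The naive arm of this study was motor cortex of Sprague-Dawley rats (wild type, per the labels) that never received an electrode. Tissue at the positions called 100 µm and 500 µm was collected by laser capture, a method that cuts chosen areas out of a section with a laser. It comprised 12 of the 48 libraries of the series, from 3 of 15 rats (n2, n3 and n5), and was taken as the libraries whose titles give naive and one of these positions. Each rat gave 1 library per position from the left and from the right hemisphere, so that 6 libraries stood on each side. In implanted rats the same names mark tissue within 100 µm of a silicon electrode shank and tissue about 500 µm away. The naive rats carried no shank, so the positions record the sampling scheme and not a distance to an injury. The labels' protocols describe male rats aged 12 to 14 weeks at implantation and do not give the naive rats' age separately. Brains were fixed by perfusion and cut into 20 µm sections, with tissue taken at depths of about 600 to 1700 µm. The protocols state that the 500 µm tissue was pooled from several smaller pieces around the site, and that naive tissue was collected in a similar way. If so, position and the pooling of pieces cannot be told apart in these libraries.

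Primary motor cortex drives voluntary movement. It is built of layered excitatory projection neurons and local inhibitory interneurons, among astrocytes, oligodendrocytes, microglia and blood vessels. A penetrating electrode is known to provoke a reaction of microglia and astrocytes around the shank, with loss of nearby neurons. A comparison of near with far tissue therefore needs to know how much 2 samples of uninjured cortex differ when they are cut at the same spacing. Genes carry Ensembl IDs in these data, and 0 of the naive IDs could be paired with a symbol through the reference table used here. Marker genes of cortical cell types could therefore not be read, the tissue label was not checked against them, and genes are given by ID. In such bulk samples fewer cells of a type and less RNA per cell cannot be told apart.

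More genes were detected at 100 µm than at 500 µm in unimplanted cortex, in 3 of 3 rats and at 5 of 6 sites (a site being 1 hemisphere of 1 rat). In rat n2 the left hemisphere gave 8067 genes with at least 1 count at 100 µm and 7211 at 500 µm, and the right gave 11409 and 9422. In rat n3 the right hemisphere gave 16023 and 9555 genes, while the left was the 1 site with fewer genes at 100 µm, with 8085 against 8406. In rat n5 the left hemisphere gave 11600 and 9471 genes and the right 12291 and 7192. Of the 6 libraries at 100 µm, 4 lay above every library at 500 µm, and the other 2, the left hemispheres of n2 and n3, lay among them. Averaged over hemispheres, 11246 ± 1307 genes (SD, n = 3) were detected at 100 µm and 8543 ± 379 at 500 µm, a difference of 2703 ± 1142. With 3 rats a two-sided exact sign-flip permutation test cannot go below p = 0.25, the value obtained.

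Library totals ran from 4209485 to 11555077 counts at 100 µm and from 5185212 to 8253488 at 500 µm. They were higher at 100 µm at 3 of 6 sites and, averaged over hemispheres, in 3 of 3 rats. The library with the fewest counts of all, rat n5 right at 100 µm, had the second most genes. When the number of genes was computed for a random draw of 4209485 counts from each library, 11053 ± 1303 (SD, n = 3) were expected at 100 µm and 8413 ± 384 at 500 µm. The difference was then 2639 genes, higher at 100 µm in 3 of 3 rats and at 5 of 6 sites (exact p = 0.25, the smallest possible). It was larger in right hemispheres, at 4427 genes, than in left hemispheres, at 852. Implanted tissue at the same draw had medians between 8615 and 10348 genes per group. The naive 500 µm median of 8679 was inside that range and the naive 100 µm median of 11333 above it. Implanted libraries with fewer counts than the draw were left out, which left 5 libraries near the electrode at 1 week. Single libraries overlapped, with 7886 to 15531 genes at naive 100 µm and up to 12898 in implanted tissue (near, 6 weeks). Naive and implanted counts were deposited apart, and this comparison was not tested.

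**Figure D1:**
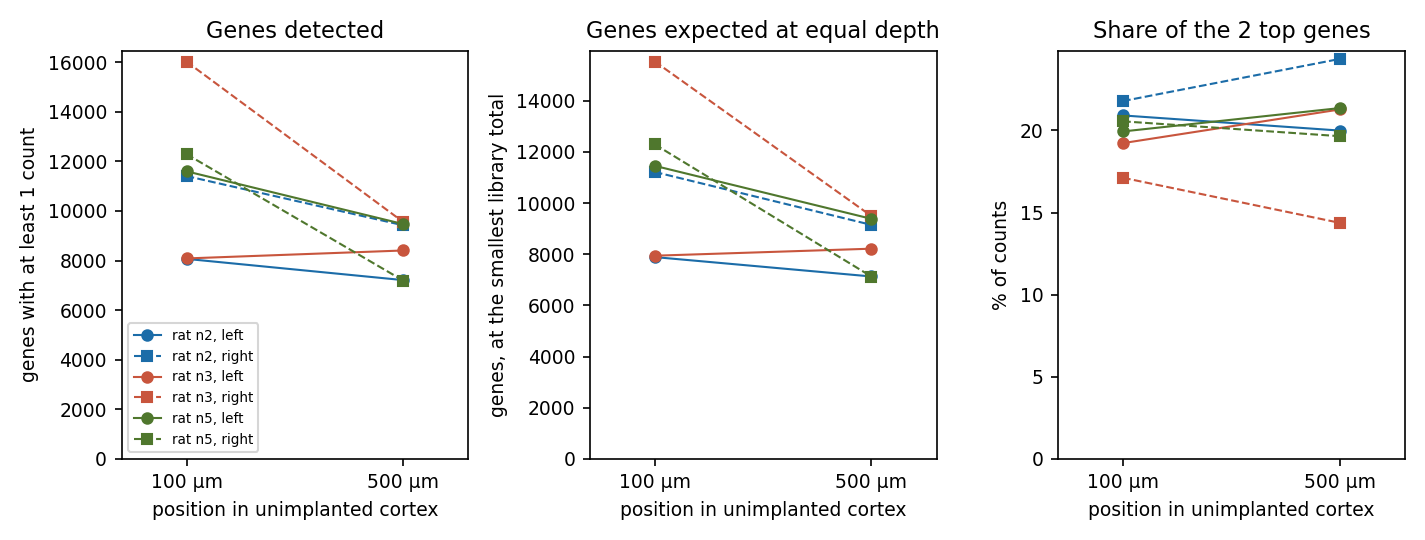
Genes with at least 1 count (left), genes expected in a draw of equal size (middle) and the percent of counts in the 2 most abundant genes (right) at each position, with 1 line for each hemisphere of each rat. The lines for genes fall from 100 µm to 500 µm at 5 of 6 sites, and those for the share of the top genes cross.

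Genes found in only some of the libraries were nearly all of low or middling abundance. Abundance was the mean over the same 12 libraries, so counts of 0 also lower it. Of 17616 genes in the naive table, 3538 (20.1%) had counts in all 12 libraries, and 2666 had counts in 1 library. All 62 genes with a mean of 1000 CPM or more (counts scaled to a library total of 1e6) were found in all 12 libraries, as were 1452 of 1493 genes between 100 and 1000 CPM. Between 10 and 100 CPM this held for 1991 of 6803 genes, and between 1 and 10 CPM for 33 of 5110. A total of 3893 genes had counts at 100 µm and none at 500 µm, against 482 with the reverse. Both numbers are over all libraries of a position and were not set to equal depth. Rat n3 right at 100 µm alone had 11555077 counts and 16023 genes, and its part in the 3893 was not tested. Of the 3893 genes, 2992 had a mean below 1 CPM. Only 9 genes had counts in all 6 libraries at 100 µm and in 0 at 500 µm, and 0 genes showed the opposite pattern. Among genes with a mean of at least 50 CPM, between 0.0637% and 4.59% per library were listed at 0. The highest of these shares, 4.46% and 4.59%, belonged to rat n2 left and rat n5 right at 500 µm, the libraries with the fewest genes.

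The shares of counts held by the most abundant genes were close at the 2 positions, though 3 rats cannot show them to be equal. The 2 most abundant genes were the same in 48 of 48 libraries of the series, and in naive cortex they held 19.9% ± 1.61 (SD, n = 3) of counts at 100 µm and 20.2% ± 2.19 at 500 µm. In 1 of 3 rats the 100 µm share was the higher one (exact p = 0.75, with 0.25 the smallest possible). By library it ran from 17.1% to 21.8% at 100 µm and from 14.4% to 24.4% at 500 µm, so the ranges overlapped. The 10 most abundant genes of each library together held 28.4% ± 2.14 at 100 µm and 28.9% ± 3.25 at 500 µm (exact p = 0.50). The number of genes above 100 CPM went the other way from the number detected. It was 1675 ± 73.0 (SD, n = 3) at 100 µm and 1787 ± 82.2 at 500 µm, lower at 100 µm in each of the 3 rats and at 4 of 6 sites (exact p = 0.25).

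Comparing the positions asks which transcripts differed between the 2 cuts with no implant in place. Counts were summed over the hemispheres of a rat and compared within rats by the quasi-likelihood test of edgeR. The p-values of 11839 genes were adjusted after Benjamini and Hochberg, and adjusted p-values below 0.05 counted as calls. The test called 0 genes (0%), with 600 genes (5.07%) at an unadjusted p under 0.05, 500 of them higher at 100 µm and 100 lower. The Wald test of DESeq2 called 1354 genes (11.4%), 1142 higher and 212 lower. Of those 1354, 1199 had 0 counts in at least 1 of the 12 libraries, and 983 moved the same way in every rat. Over all genes tested, 18.6% were higher and 8.23% lower at 100 µm in every rat. The test is of the difference within rats, so called genes tend to share a direction. The 983 are thus no support for the calls. Zeros were common among all genes tested: only 3538 of 11839 had counts in all 12 libraries, and DESeq2 called 155 of these. Of the called genes 785 had 0 counts in 6 or more libraries, a number not taken over all genes tested. DESeq2 called 22.5% of genes with a mean below 10 CPM and 5.33% of those between 100 and 1000 CPM.

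The edgeR calls changed with the rats used. Without rat n2 it called 9 genes (8 higher), without rat n3 8 (4 higher) and without rat n5 0. The lists of 9 and 8 genes shared 0 genes. Left hemispheres alone gave 1 call, lower at 100 µm, and right hemispheres alone 2, both higher. The right hemisphere of rat n3 held the library with the most genes, and without that hemisphere there was 1 call. A fit that took its spread from naive and implanted rats together called 4 of 14783 genes, all higher at 100 µm.

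**Figure D2:**
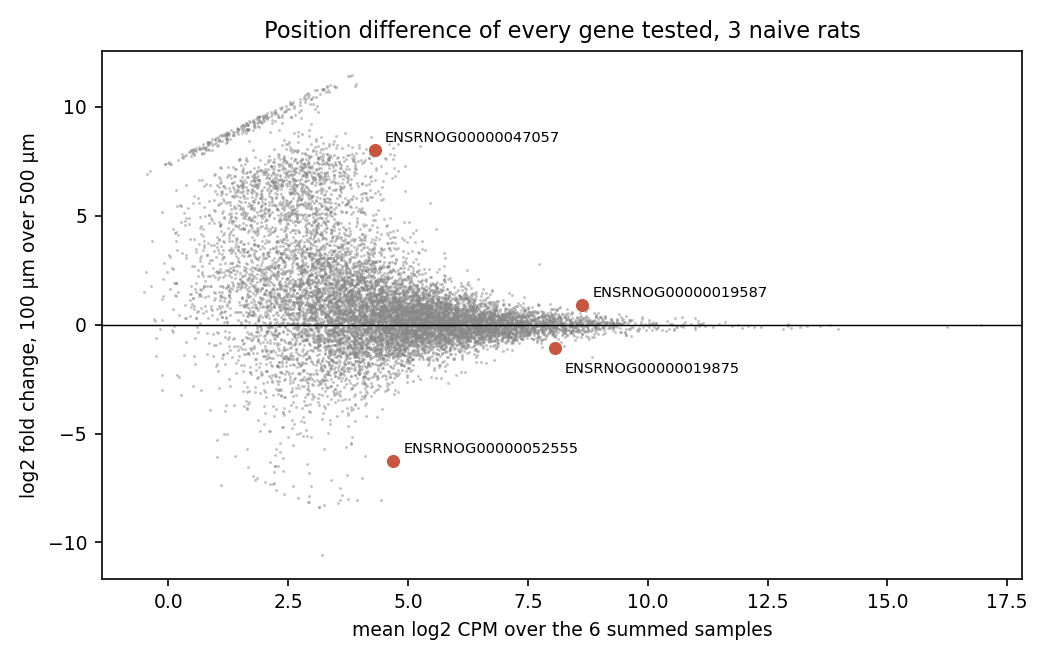
Fitted log2 fold change of 100 µm over 500 µm against mean log2 CPM, with 1 point for each of 11839 genes and the 4 named genes in red. The cloud is wide and shifted upward at low abundance and narrows toward 0 at high abundance; the slanting row of points at the upper left holds genes with 0 counts at 500 µm.

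Across all genes tested, the median log2 fold change was 0.40 in favour of 100 µm, and 65.4% of genes were higher there. The median depended on the libraries and on the model. It was 0.19 in left and 0.91 in right hemispheres alone, 0.20 without the right hemisphere of rat n3, 0.05 without the rat in the model, 0.88 without the low-count filter and 0.68 in the fit shared with implanted rats. The positive median lay in scarce genes. Below 10 CPM the median was 2.42 (3532 genes), between 10 and 100 CPM 0.27 (6744 genes), between 100 and 1000 CPM 0.02 (1500 genes) and from 1000 CPM upward -0.06 (63 genes). The fitted fold changes of 260 genes at 0 in every rat at 500 µm, and of 1 at 0 at 100 µm, depend on the small count added by the fit. More genes detected per library and a higher fitted level of scarce genes at 100 µm are seen in the same libraries, and the part of the former in the latter was not tested.

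Abundant genes bounded the difference more closely than scarce ones. Between 100 and 1000 CPM, 98.1% of genes had a log2 fold change within 1 of 0, and the 5th to 95th percentiles ran from -0.62 to 0.67. From 1000 CPM upward all 63 genes were within 1, with percentiles of -0.22 and 0.20. The half-width of the 95% confidence interval of a gene's log2 fold change had a median of 0.32 from 1000 CPM upward, 0.70 between 100 and 1000 CPM, 2.64 between 10 and 100 CPM and 8.59 below 10 CPM. The standard deviation over the 3 rats of a gene's own log2 ratio, computed after adding 1 CPM, had medians of 0.23, 0.49, 1.38 and 1.85 in that order.

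**Figure D3:**
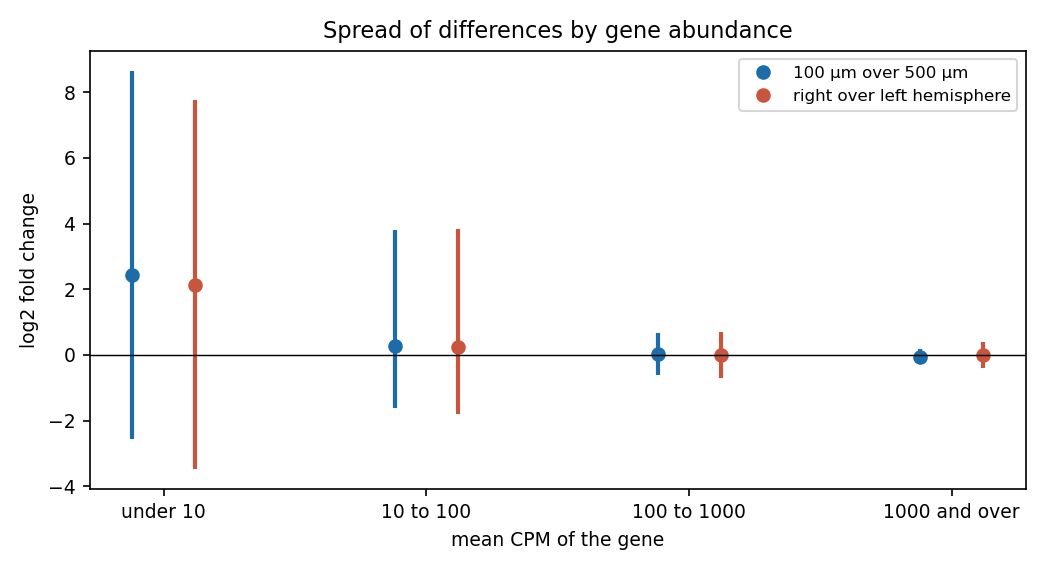
Median (points) and 5th to 95th percentiles (bars) of log2 fold changes over genes, by mean CPM, for position (blue) and hemisphere (red) in naive rats. Both comparisons have medians above 2 for genes below 10 CPM and near 0 for genes from 100 CPM upward.

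Direction was also counted within rats. In 2199 genes (18.6%) the summed level was higher at 100 µm in all 3 rats, and in 974 (8.23%) it was lower in all 3. The 3 values at 100 µm lay wholly above the 3 at 500 µm in 1162 genes (9.82%) and wholly below them in 398 (3.36%). The excess lay largely in scarce genes. Below 10 CPM, 959 genes were higher and 76 lower in all 3 rats, and 660 lay wholly above and 28 wholly below. A scarce gene can pass the low-count filter through the samples of 1 position alone, so these counts are no support for a difference. Between 100 and 1000 CPM, 81 genes lay wholly above and 73 wholly below. Between 100 and 1000 CPM, 218 genes were higher and 193 lower in all 3 rats. TMM scaling centres the log ratios of well-counted genes, so the balance of directions among abundant genes is tied to it. That balance is given under this scaling only. From 1000 CPM upward the counts were 6 and 5 of 63 genes.

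With no gene called, the 2 higher and 2 lower genes of smallest unadjusted p are described, among those averaging 3 or more in log2 CPM, and none of them passed the test. ENSRNOG00000047057 had 63.4, 26.5 and 26.6 CPM at 100 µm in rats n2, n3 and n5, and 0.791, 0.0764 and 0 CPM at 500 µm. The positions did not overlap over rats. In single libraries it had 234 to 470 counts at 5 sites at 100 µm but 2 counts in rat n5 right, and at 500 µm it had 10, 1 and otherwise 0 counts. Its log2 fold change was 8.01 ± 2.29 (approximate SE; edgeR adjusted p = 0.753), a size that rests on counts at or near 0.

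ENSRNOG00000019587 was found in every library and differed by less. It had 572, 407 and 570 CPM at 100 µm in rats n2, n3 and n5, and 314, 226 and 295 CPM at 500 µm. The rats' values did not overlap between positions, but single libraries did. Rat n3 right had 329 CPM at 100 µm and 342 at 500 µm, the 1 site of 6 with the opposite direction. The log2 fold change was 0.89 ± 0.26 (edgeR adjusted p = 0.753).

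Among lower genes, ENSRNOG00000052555 had 0, 0.425 and 1.99 CPM at 100 µm in rats n2, n3 and n5, and 4.43, 22.2 and 124 CPM at 500 µm. Its counts lay mostly in the right hemispheres: rat n5 right gave 1352 of the counts at 500 µm, rat n3 right 265 and rat n2 right 56. In the left hemispheres of n2 and n5 it had 0 counts at both positions. The log2 fold change was -6.26 ± 1.63 (edgeR adjusted p = 0.753), and without rat n2 the gene was called (log2 fold change -5.86, adjusted p = 0.00378, range over the alternatives 4.18e-08 to 1).

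ENSRNOG00000019875 had 124, 271 and 140.2 CPM at 100 µm in rats n2, n3 and n5, and 337, 373 and 353 CPM at 500 µm. All 3 rats were lower at 100 µm, and their ranges did not overlap. At the level of sites it was lower at 100 µm at 6 of 6, by as little as 288 against 309 CPM in rat n3 right and by as much as 89.3 against 529 CPM in rat n2 left. The log2 fold change was -1.08 ± 0.30 (edgeR adjusted p = 0.753), with -1.56 in left and -0.52 in right hemispheres alone. The Wald test of DESeq2 called all 4 named genes, with adjusted p = 7.53e-07 for ENSRNOG00000047057, 6.04e-05 for ENSRNOG00000019587, 4.18e-08 for ENSRNOG00000052555 and 0.000954 for ENSRNOG00000019875. That test called 1354 of 11839 genes, and the 4 were picked for small edgeR p-values in the same samples. Neither these calls nor the lack of overlap between positions is therefore separate support for a difference.

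**Figure D4:**
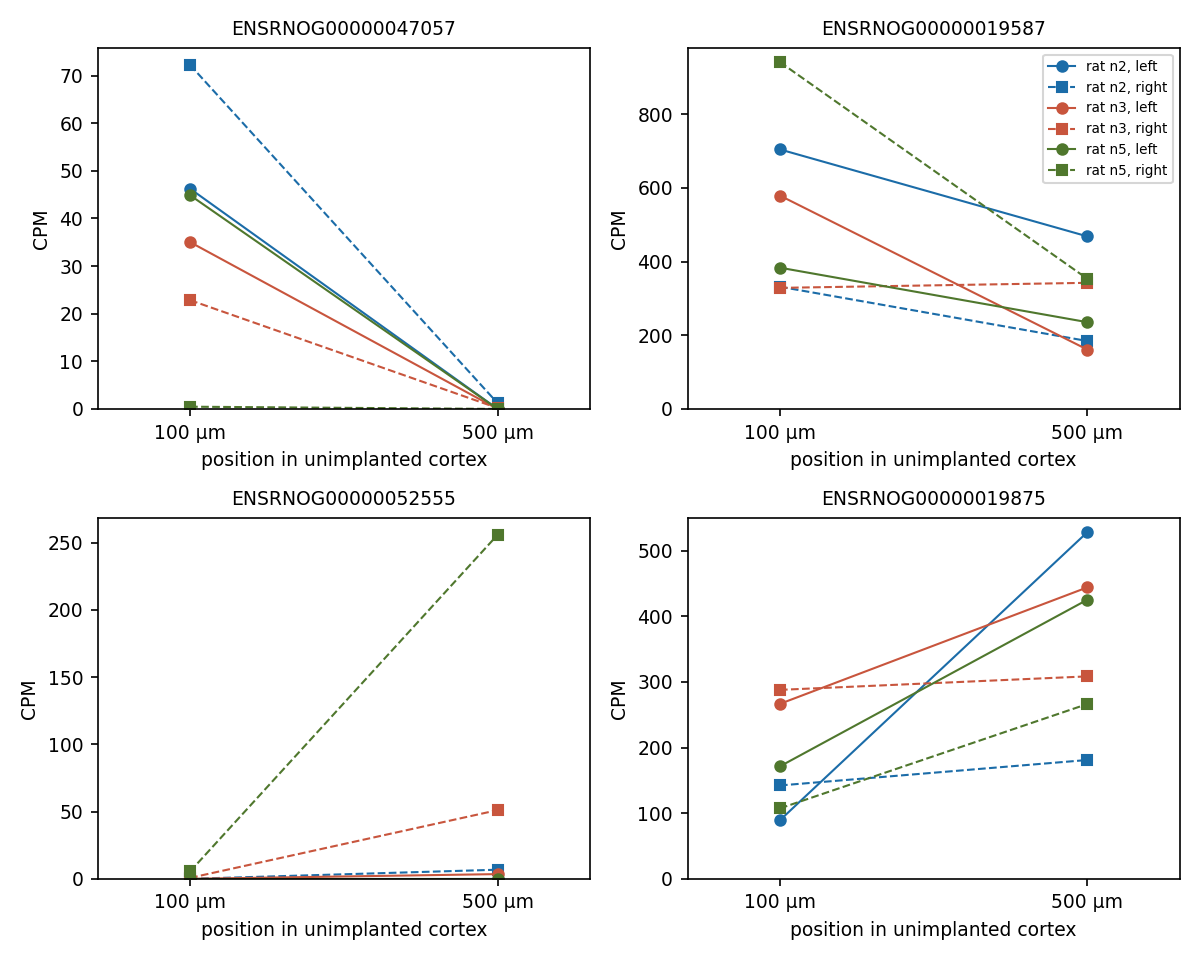
CPM of the 4 named genes at each position, with 1 line for each hemisphere of each rat. The genes on the left are at or near 0 at one position, and those on the right are present in all 12 libraries with overlapping ranges.

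In implanted rats these 4 genes showed no called difference between near and far tissue at 24 h, 1 week or 6 weeks. ENSRNOG00000019587, higher at 100 µm in naive rats, had log2 fold changes near over far of -0.35, -0.32 and -0.17 at those times. ENSRNOG00000019875 had -0.50, -0.15 and -1.001 (edgeR adjusted p = 1, 0.978 and 0.747). For both, the difference from the naive value was tested in 1 fit and was not called, with adjusted p-values of 0.979 to 1. ENSRNOG00000047057, higher at 100 µm in naive rats, had -9.15 ± 5.23, -4.99 ± 3.53 and -1.26 ± 2.28 (approximate SE) near over far. ENSRNOG00000052555 had -2.30 ± 1.69, -1.33 ± 1.42 and -0.03 ± 1.35. Their differences from the naive values were not called either, and with such errors that says little about their size.

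The position difference at one site did not resemble that at another. Over the 1861 genes averaging 6 or more in log2 CPM, the log2 ratio of 100 µm to 500 µm correlated between the hemispheres of 1 rat with r from -0.04 to 0.03 (3 pairs), and between different rats with r from -0.04 to 0.08 (12 pairs). These are correlations across genes, given as a description. The share of these genes within 1 log2 unit of no difference ran from 61.4% in rat n2 left to 88.2% in rat n3 right.

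By the median, libraries of the same hemisphere lay about as far apart as libraries of different rats; this was not tested. Over 1555 genes with a mean of at least 100 CPM, the median absolute log2 difference between 2 libraries was 0.59 for positions of the same hemisphere (6 pairs), 0.59 for hemispheres at the same position of 1 rat (6 pairs), 0.60 for the other hemisphere and position of 1 rat (6 pairs) and 0.60 for other rats at the other position (24 pairs). It was 0.57 for different rats at 100 µm and 0.67 for different rats at 500 µm (12 pairs each). The ranges of these 6 kinds of pair overlapped, from 0.33 to 0.80 over all of them. The library with the highest median correlation with the others, rat n3 right at 100 µm (r = 0.62 over 5585 genes), had the most genes detected, and that with the lowest, rat n5 right at 500 µm (r = 0.38), had the fewest.

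A comparison along another axis of the same 12 libraries was made for scale. Right and left hemispheres, each summed over positions, were compared within rats over 11831 genes. The median log2 fold change was 0.33 in favour of the right, with 2.12 below 10 CPM and -0.00423 between 100 and 1000 CPM. Between 100 and 1000 CPM the 5th to 95th percentiles ran from -0.69 to 0.71, against -0.62 to 0.67 for position. Right hemispheres gave 10982 ± 1601 genes (SD, n = 3) and left hemispheres 8807 ± 1528, higher on the right in 2 of 3 rats (exact p = 0.50). At an unadjusted p under 0.05 there were 303 genes (2.56%). The difference between the position and hemisphere comparisons was not tested.

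The hemisphere comparison called 1 gene (0.00845%), which is named after its value was seen. ENSRNOG00000003738 averaged 109 CPM ± 179 (SD, n = 3) on the right and 0.338 ± 0.586 on the left (log2 fold change 8.47 ± 1.16, edgeR adjusted p = 1.64e-05). A single library, rat n5 right at 100 µm, gave 2869 of its counts, and every other library had between 0 and 71. Without rat n2, n3 or n5 the comparison called 15, 4 and 3 genes, all higher on the right, and without the rat in the model it called 0.

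The same spacing was compared around an electrode. In implanted rats edgeR called 19 of 14399 genes (0.132%) near against far at 24 h, 57 (0.396%) at 1 week and 11 (0.0764%) at 6 weeks. These counts are for 3, 5 and 4 rats in a shared fit, and the naive count is for 3 rats alone, so the counts themselves do not compare the effects. In 1 fit over naive and implanted rats, edgeR called 4 of 14783 genes in naive rats and 21, 69 and 30 in implanted ones. In the separate fits, the implanted shares at an unadjusted p under 0.05 were 3.07%, 6.05% and 2.49%, against 5.07% in naive rats. In the 1 fit over both, 237 of 14783 genes were under 0.05 in naive rats, and 435, 969 and 350 in implanted ones. Without the rat in the model the implanted calls were 0, 6 and 1, and the naive calls 0. As single rats were left out, the calls ranged between 2 and 30 (24 h), 19 and 73 (1 week) and 9 and 24 (6 weeks). The split of the calls moved with the scaling. With TMM 6 were higher and 13 lower near the electrode at 24 h, 8 and 49 at 1 week, and 9 and 2 at 6 weeks. With DESeq2 size factors the numbers were 13 and 9, 20 and 21, and 18 and 2.

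Most genes called around the electrode had small position differences in naive rats, where most could be tested. Most of them also averaged above 6 in log2 CPM there. Between 100 and 1000 CPM, 98.1% of all naive genes were within 1 log2 unit of 0, so small differences are not particular to the called genes. Of the 49 genes called lower near the electrode at 1 week, with a median log2 fold change of -1.14, all were tested in naive rats. Their naive median was -0.11, 32 were lower and 17 higher at 100 µm, and 3 had an unadjusted naive p under 0.05, close to the share of 5.07% over all naive genes. Of all naive genes tested 65.4% were higher at 100 µm, but 52.6% between 100 and 1000 CPM and 41.3% from 1000 CPM upward. Of the 13 called lower at 24 h, 9 were lower at 100 µm in naive rats, with a median of -0.13. Among genes called higher near the electrode, the naive median was 0.54 for 6 genes at 24 h, -0.02 for the 7 of 8 tested at 1 week and 0.00465 for the 8 of 9 tested at 6 weeks. The highest naive log2 fold changes among genes called higher near the electrode were 5.69 at 24 h, 7.28 at 1 week and 4.37 at 6 weeks. Both genes called lower at 6 weeks were also lower at 100 µm in naive rats, with a median of -0.17. The median over all naive genes tested was 0.40, which belongs to scarce genes as above. Naive and implanted rats were different animals, and no list was tested as a set.

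**Figure D5:**
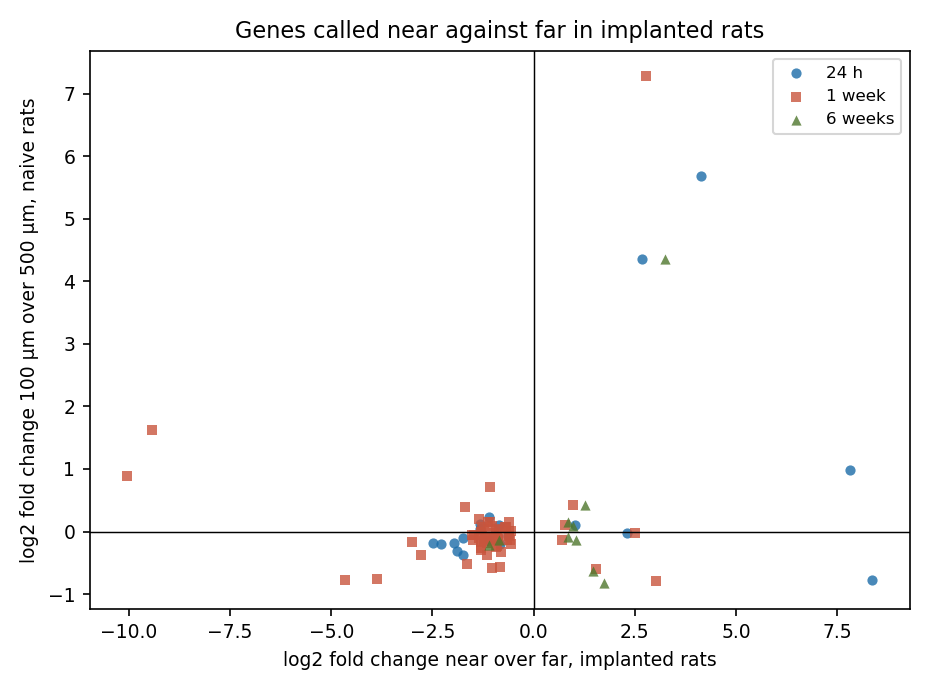
For each gene called near against far in implanted rats, its log2 fold change there (horizontal) and its log2 fold change of 100 µm over 500 µm in naive rats (vertical), by time. Most points lie within 1 of 0 on the vertical axis, and 4 points at the upper right are far above 0 in both.

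The implanted and the naive difference were also compared directly, in 1 fit over the 14783 genes that both tables hold and that passed the low-count filter. This contrast uses the near-far difference within each rat, so a shift between the tables that is common to both positions of a rat drops out of it. At 24 h edgeR called 6 genes (0.0406%), 4 with a higher near-far difference than in naive rats and 2 with a lower one. At 1 week it called 7 genes (0.0474%), 6 of them higher. The genes called near against far included 2 of these 7. At 6 weeks it called 15 genes (0.101%), all higher, and 0 of these were among the genes called near against far. At an unadjusted p under 0.05 the shares were 2.15%, 4.53% and 1.76%. Without naive rat n5 the counts were 1, 2 and 1, with 0 higher at any time. Without rat n3 the 24 h count was 10, and without rat n2 the 1 week count was 4. Among implanted rats, the 24 h count was 1 without rat 25 and 22 without rat 30, the 1 week count was 15 without rat 23, and the 6 week count was 4 without rat 17 and 1 without rat 19. With DESeq2 size factors 11 genes were higher and 2 lower at 24 h. The Wald test of DESeq2 gave mostly lower calls instead, with 55 of 477, 59 of 964 and 42 of 336 higher. The 3 contrasts share the same naive rats and are not independent of each other. Of the 19, 57 and 11 genes called near against far, 0, 2 and 0 differed from the naive position difference in this test.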

How the data were processed

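Laser-captured tissue of rat motor cortex was sequenced as strand-specific paired reads, as the labels' protocols say. The authors deposited unnormalized counts per gene, with 1 column for each library, and every listed gene has a count somewhere. RSEM 1.3.1, STAR 2.6.1b, DESeq2, cutadapt 2.3, FastQC 0.11.8 and the build Rnor_6.0 appear in the submitters' processing notes, without role or order. Any rounding of estimated counts by the authors is not given there.

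Counts were summed per rat and position (or hemisphere), so that the rat was the replicate, and fitted in edgeR 4.0.16 (R 4.3.3; filterByExpr by group, TMM scaling, robust quasi-likelihood fit) with the rat as a block, since both positions come from each animal. The deviations of a rat at its 2 positions had correlations of 0.0055 to 0.0278 over genes, all near 0. Each rat matched itself best, but deviations taken from the mean of 3 rats are tied to each other. That match is therefore no support for the block. Approximate SEs of log2 fold changes (the ± values) come from dividing their size by the root of the F statistic. CPM of rats is scaled by TMM, and CPM of single libraries by their total. No 2 libraries of a group agreed within sampling noise (30 pairs, smallest chi-square per degree of freedom 55.0). Expected genes at equal depth are hypergeometric means, which cover counting error only. DESeq2 1.42.0 was an alternative. The fits were tested on simulated data.

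Genes to name were the 2 higher and 2 lower IDs of smallest unadjusted p among genes averaging 3 or more in log2 CPM, the stated fallback where no gene is called and no symbol is available. The positions, lists and tests were chosen with earlier results of these data known. The fixed marker and pathway lists need symbols and were not analysed here. No sequence is shown, since no ID could be matched to the sequence tables.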

Additional observations from a re-analysis of the deposited data

Results flagged for a closer look

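Single libraries stood apart from the other 5 of their position for named genes. In a screen of 22 sets of 6 libraries 5 did so by Dixon's criterion at the 95% level, where chance gives about 1 in 20. These genes were named for small p-values or, for ENSRNOG00000003738, after its value was seen, and each was at 0 in at least 1 of the libraries of that position, so the number of such sets is not compared with chance. At 100 µm, rat n5 right had 682 CPM of ENSRNOG00000003738, against at most 6.14 in the others, and 5.46 CPM of ENSRNOG00000052555, against at most 0.692. At 500 µm the same hemisphere had 256 CPM of ENSRNOG00000052555, against at most 51.1. At 500 µm rat n2 right had 7.75 CPM of ENSRNOG00000003738, against at most 1.40, and 1.21 CPM of ENSRNOG00000047057, against at most 0.193.

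The near-far difference of implanted rats differed from that of naive rats, by a direct edgeR test, in 6 genes at 24 h, 7 at 1 week and 15 at 6 weeks. Of these, 4, 6 and 15 were higher than in naive rats. Without naive rat n5 the counts were 1, 2 and 1, with 0 higher. The DESeq2 Wald test gave mostly lower calls, with 422 of 477, 905 of 964 and 294 of 336.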

How the results depend on the processing

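For naive 100 µm against 500 µm, edgeR called 0 genes in 8 of the 13 alternative settings that kept all rats and in a run without rat n5. Among these 8, the setting that asked for an absolute log2 fold change of at least 1 could only give 0. It keeps a part of the main calls, which were 0. EdgeR called 0 to 9 as each rat was left out, 1 without a low-count filter, 1 in left and 2 in right hemispheres alone. In settings added after seeing the data it called 1 without the right hemisphere of rat n3 and 4 in the fit shared with implanted rats. The DESeq2 Wald test called 1354. Without the replicate block the position count was also 0. For hemispheres the count of 1 became 1050 with DESeq2, 4 without a filter, 0 without the block, and 3 to 15 without a rat. The implanted near-far counts of 19, 57 and 11 became 0, 6 and 1 without the block. They ran from 2 to 30, 19 to 73 and 9 to 24 without a rat, and the count at 6 weeks was 20 with DESeq2 size factors. The counts of 6, 7 and 15 for the difference from naive became 13, 20 and 24 with DESeq2 size factors and 477, 964 and 336 with the DESeq2 Wald test. They became 0, 0 and 0 without the block, and ran from 1 to 22, 2 to 15 and 1 to 22 without a rat. The median difference over all genes moved with scaling, from -0.97, -1.68 and -0.80 (TMM) to -0.71, -1.41 and -0.61 (DESeq2 size factors). The log2 fold changes of the 4 named genes kept their sign in every setting that tested them. The cause of these changes was not tested. Below 100 CPM the median half-width of the 95% interval was 2.64 (10 to 100 CPM) and 8.59 (under 10 CPM) in log2 units.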
